A study of Heterocephalus glaber and Mus musculus with 9 samples.

Results

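The proteasome genes of the spleen table were the 35 rows, of 12946 genes in all, whose symbol begins with Psma, Psmb, Psmc, Psmd, Psme, Psmf or Psmg followed by a digit. They were selected by name and not by any measured value. They comprised 11 genes of the core particle, 3 of the immunoproteasome, 13 of the regulatory particle, 4 assembly factors and 3 other activators or inhibitors, and 1 gene, Psmc3ip, that matches only by its symbol and encodes a partner of the recombinases of meiosis. The mouse annotation holds 49 such genes, and 14 of them did not appear there by symbol: Psma1, Psma4, Psma6, Psmb3 and Psmb11 of the core, Psmb9 and Psme2 of the immunoproteasome, Psmc1, Psmc6, Psmd8 and Psmd14 of the regulatory particle, and the assembly factors Psmd9, Psmd10 and Psmg4.

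The study sequenced RNA of whole spleens from mice and from naked mole-rats (NM-R), long-lived African rodents whose healthy adults had either small (ssNM-R) or enlarged (lsNM-R) spleens. The 3 mice were wild-type C57Bl/6N males aged 2 months. The ssNM-R group held 3 males, numbered 2, 3 and 6 and aged 30, 26 and 23 months, and the lsNM-R group held 2 males, numbered 1 and 5 and aged 24 and 23 months, and 1 female, number 4, aged 29 months. No animal was treated. Species, age, and the genome and gene models used for counting changed together between mouse and NM-R and cannot be told apart.

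The proteasome is the barrel-shaped protease that degrades proteins tagged with ubiquitin. Its core particle holds the cutting sites inside rings of alpha and beta subunits, the regulatory particle recognizes, unfolds and feeds in the substrate, and dedicated chaperones assemble the rings. Lymphocytes and other immune cells carry much immunoproteasome, in which interferon-inducible beta subunits replace the constitutive catalytic ones and yield peptides suited to presentation on MHC class I, while maturing red cells use the proteasome to remodel their proteins.

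Values were normalized read counts, that is reads per gene divided by a size factor of each library. Recovered reads per library numbered 10441982 to 11180912 in mice, 7815326 to 18219644 in ssNM-R and 8327759 to 18387599 in lsNM-R. Of the 35 genes, 34 had a mean of at least 10 normalized counts and 32 had more than 100 reads in every library, so that counting error was small for all but Psma8, Psmc3ip and Psmb10. A fold change is the difference of group means of log2(normalized count + 1), and a gene was called where limma's p, adjusted by the Benjamini-Hochberg method over all 12946 genes, was under 0.05. The values are not divided by gene length, and fewer cells of a type and less RNA per cell cannot be told apart in a whole spleen.

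Relative to mouse, most proteasome genes were higher in NM-R spleens, whereas the immunoproteasome genes were far lower. Of the 35 genes, 25 were called higher in NM-R, beside 39.7% of all genes, and 6 were called lower, beside 38.8% of all genes. By role, higher and lower calls numbered 8 and 1 of 11 core genes, 10 and 1 of 13 regulatory particle genes, 4 and 0 of 4 assembly factors by limma, 2 and 1 of the 3 other regulators, and 0 and 3 of 3 immunoproteasome genes. Over all members, edgeR called 25 members higher and 5 lower and DESeq2 25 and 6. The values of the 6 NM-R spleens lay wholly above those of the 3 mice for 25 genes (36.4% of all genes) and wholly below for 5 (36.2%). The median log2 fold change was 0.64 for the core, 0.70 for the regulatory particle, 0.91 for the assembly factors, 0.35 for the other regulators and -3.55 for the immunoproteasome, beside 0.01 for all genes. The plot of fold changes by gene shows each member.

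**Figure D1:**
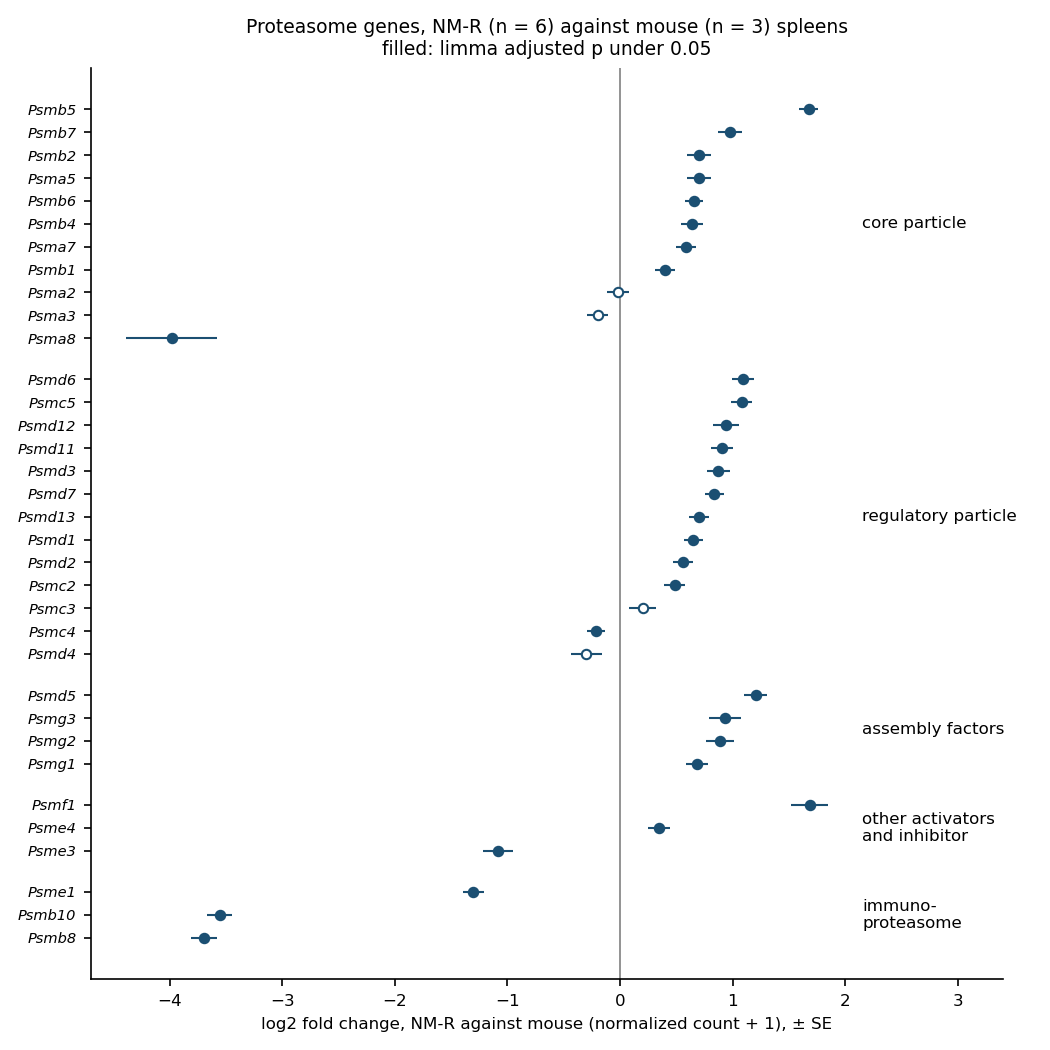
Log2 fold change of NM-R (n = 6) against mouse (n = 3) spleens for the 34 subunits and factors, with standard errors on the horizontal axis and genes on the vertical axis; filled points passed limma's adjusted p of 0.05. The 3 immunoproteasome genes lie to the left of 0 and most core, regulatory particle and assembly genes to the right.

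Among the immunoproteasome genes, Psmb8 encodes the inducible subunit that takes the place of Psmb5. Its normalized counts were 3581, 3426 and 3674 in mice 1, 2 and 3, 257, 353 and 264 in ssNM-R 2, 3 and 6, and 281, 242 and 260.2 in lsNM-R 1, 4 and 5. All 6 NM-R spleens lay far below all 3 mice. The means were 3560.3 ± 125 (SD, n = 3) in mouse and 276 ± 39.6 (SD, n = 6) in NM-R, a 12.9-fold difference (log2 fold change -3.69 ± 0.11 (SE), limma adjusted p = 3.1e-09). Psmb10 replaces Psmb7 in the same way and measured 1209, 1228 and 1414 in mice 1, 2 and 3, 124, 123 and 118 in ssNM-R 2, 3 and 6, and 105, 86.0 and 98.5 in lsNM-R 1, 4 and 5. Here too the groups did not overlap, and the lsNM-R spleens were the lowest (log2 fold change -3.55 ± 0.11 (SE), limma adjusted p = 3.2e-09). Psme1, a subunit of the activator ring that caps the immunoproteasome, measured 3067, 3035 and 3672 in mice 1, 2 and 3, 1188, 1402 and 1459 in ssNM-R 2, 3 and 6, and 1268, 1269 and 1326 in lsNM-R 1, 4 and 5. Its NM-R values were again below every mouse value, by a smaller factor of 2.47 (log2 fold change -1.30 ± 0.10 (SE), limma adjusted p = 8.2e-07).

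The constitutive catalytic subunits moved the other way. Psmb5, which carries the chymotrypsin-like site, measured 627, 693 and 781 in mice 1, 2 and 3, 2260.4, 2199 and 2409 in ssNM-R 2, 3 and 6, and 2134, 2197 and 2179.7 in lsNM-R 1, 4 and 5. Every NM-R spleen stood above every mouse, 3.18-fold on average (log2 fold change 1.67 ± 0.08 (SE), limma adjusted p = 6.8e-08), the highest fold change of the 11 core genes. Psmb6, with the caspase-like site, measured 1106, 1146 and 1245 in mice 1, 2 and 3, 2095, 2015 and 1847 in ssNM-R 2, 3 and 6, and 1695, 1795 and 1610.3 in lsNM-R 1, 4 and 5. The NM-R spleens were all higher (log2 fold change 0.66 ± 0.08 (SE), limma adjusted p = 3.2e-05). Psmb7, with the trypsin-like site, measured 991, 1098 and 1251 in mice 1, 2 and 3, 2563, 2324 and 2096 in ssNM-R 2, 3 and 6, and 2112, 2238 and 1815 in lsNM-R 1, 4 and 5. Again the groups were apart (log2 fold change 0.97 ± 0.11 (SE), limma adjusted p = 1.6e-05).

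A ratio of an inducible to the replaced subunit within a library does not depend on its size factor. The log2 ratio of Psmb8 to Psmb5 was 2.51, 2.30 and 2.23 in mice 1, 2 and 3, -3.13, -2.64 and -3.19 in ssNM-R 2, 3 and 6, and -2.92, -3.18 and -3.06 in lsNM-R 1, 4 and 5. It was lower in every NM-R than in every mouse, a difference of -5.37, or 41.3-fold. The log2 ratio of Psmb10 to Psmb7 was 0.29, 0.16 and 0.18 in mice 1, 2 and 3, -4.35, -4.23 and -4.14 in ssNM-R 2, 3 and 6, and -4.32, -4.69 and -4.19 in lsNM-R 1, 4 and 5. The groups were again apart, a difference of -4.53, or 23.1-fold. The counts are not divided by length, so the sign of a ratio does not show which gene had the higher level, and the differences include any difference in length between the species' gene models. For each of the 2 pairs the exact 2-sided permutation p over the spleens was 0.0238, before and after Benjamini-Hochberg adjustment over the 2 pairs, and this is the smallest p that 84 regroupings can give when the smaller 1-sided p is doubled. With a mouse left out the smallest possible exact p is 0.0714, which cannot pass 0.05. The pair of Psmb9 and Psmb6 could not be formed. Between the cohorts the ratios differed by -0.07 and -0.16 (lsNM-R minus ssNM-R). Single spleens decided these values. Without ssNM-R 3 the difference for Psmb8 to Psmb5 turned to 0.11, and without lsNM-R 4 the differences were -0.0056 and -0.015, alternatives chosen after seeing the data. No test of these differences between cohorts was made. The exact test used above cannot go below a p of 0.1 with 3 against 3 spleens.

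**Figure D2:**
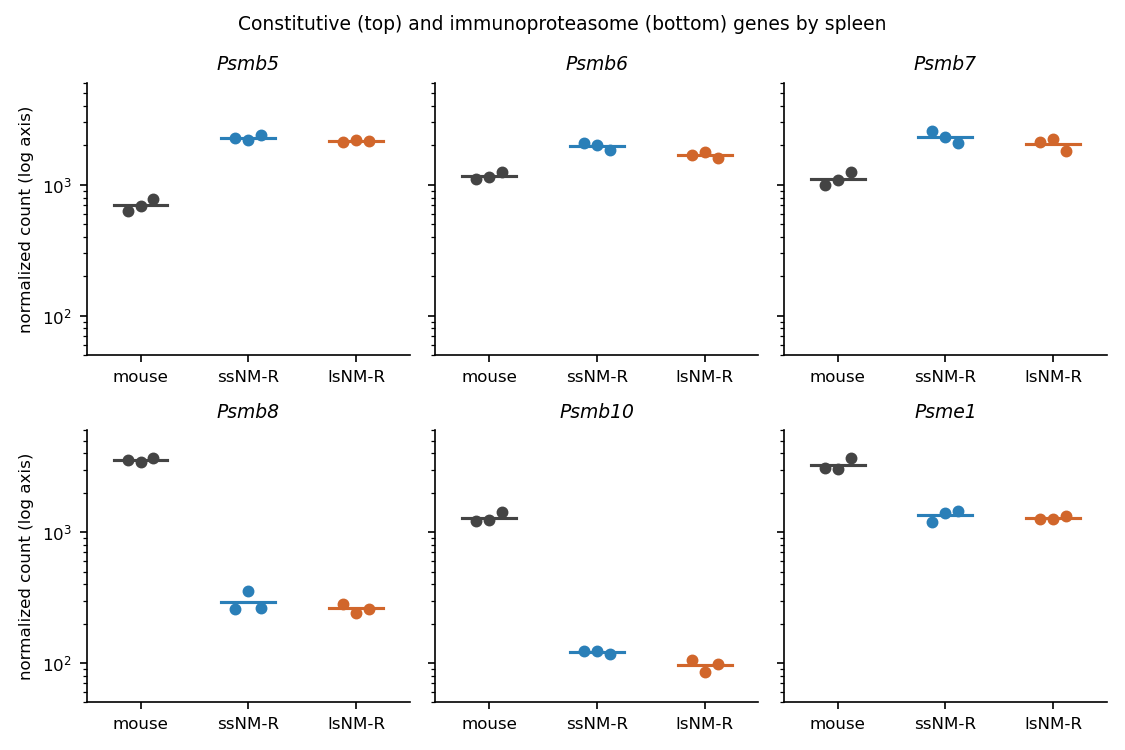
Normalized counts on a log axis for Psmb5, Psmb6 and Psmb7 (top) and Psmb8, Psmb10 and Psme1 (bottom), with 1 point for each spleen and a line at each group's mean (n = 3). The top genes are higher and the bottom genes lower in both NM-R groups than in mouse, with no overlap.

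Which of several genes had the higher level was compared in mouse only, per kilobase of annotated exon, since no NM-R gene lengths were used here. A gene's length joined the exons of all its protein-coding transcripts, so any exon not used in spleen would lower its value. The transcripts used in spleen were not examined. On that scale Psme1 (2632 ± 290, SD, n = 3), Psmb8 (2129 ± 74.8) and Psma7 (1988 ± 182 normalized counts per kilobase) were the most abundant of the 35 genes, and of these Psme1 and Psmb8 did not overlap while Psmb8 and Psma7 did. Psma8 was the lowest, at 10.7 per kilobase. The median over all 10309 genes with a length was 109.7 per kilobase, and 33 of 35 members lay above it. Per kilobase, Psmb8 exceeded Psmb5 3.15, 2.72 and 2.59 times in mice 1, 2 and 3. Psmb10 and Psmb7 were nearly level on this scale, with ratios of 1.11, 1.02 and 1.03.

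Because the genes within each of these 2 pairs moved in opposite directions, the 250 bases before the outermost annotated start of each gene are shown from the mouse genome, build mm9: chr17:34334416-34334665 on the plus strand for Psmb8, chr8:108462293-108462542 on the minus strand for Psmb10, chr14:55236852-55237101 on the minus strand for Psmb5 and chr2:38499608-38499857 on the minus strand for Psmb7. No annotated exon lies in these windows. Tap1, which encodes a subunit of the peptide transporter of antigen presentation, ends 495 bases before the start of Psmb8 on the same chromosome. Capitals mark matches on either strand to the antioxidant response letters TGANNNNGC, the only searched motif found in the 4 windows.
Psmb8: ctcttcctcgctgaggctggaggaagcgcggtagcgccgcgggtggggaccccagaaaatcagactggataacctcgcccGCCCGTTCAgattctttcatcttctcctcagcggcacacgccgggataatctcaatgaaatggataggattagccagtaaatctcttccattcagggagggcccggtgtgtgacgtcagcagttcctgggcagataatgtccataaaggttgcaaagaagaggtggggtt
Psmb10: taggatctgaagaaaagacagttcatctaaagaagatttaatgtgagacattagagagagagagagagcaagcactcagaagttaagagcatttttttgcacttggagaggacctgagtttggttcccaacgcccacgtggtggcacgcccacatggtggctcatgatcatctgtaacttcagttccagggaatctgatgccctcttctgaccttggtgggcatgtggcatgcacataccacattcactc
Psmb5: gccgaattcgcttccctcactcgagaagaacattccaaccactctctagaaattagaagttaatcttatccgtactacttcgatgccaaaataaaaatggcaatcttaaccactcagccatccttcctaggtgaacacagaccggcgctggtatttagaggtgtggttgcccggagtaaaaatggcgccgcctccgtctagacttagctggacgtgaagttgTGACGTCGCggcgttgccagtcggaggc
Psmb7: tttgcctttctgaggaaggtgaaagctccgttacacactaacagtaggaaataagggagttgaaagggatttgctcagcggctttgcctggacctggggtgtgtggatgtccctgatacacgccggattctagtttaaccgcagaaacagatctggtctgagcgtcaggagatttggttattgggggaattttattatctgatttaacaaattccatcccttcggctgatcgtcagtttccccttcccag

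The motifs and windows were chosen after the expression values had been seen. The match began 170 bases before the start of Psmb8 and 28 before that of Psmb5. Of windows of the same length before 10309 genes, 3761 (36.5%) held TGANNNNGC on either strand, as did 10 of 35 members. The gamma-activated letters TTCNNNGAA were in 595 windows (5.77%) and 3 member windows, those of Psmg1, Psmd1 and Psmd3. A short form of the interferon-stimulated response element, GAAANNGAA, likewise on either strand, was in 647 windows (6.28%) and 2 member windows, those of Psmd4 and Psmd7. In Psmg1 the matches to TTCNNNGAA and TGANNNNGC overlapped. An earlier scan used the window before the transcript with the longest coding part, and was replaced because that window of Psmb8 takes in transcribed bases. In that scan the Psmb8 window did hold TTCNNNGAA, 64 bases before that transcript's start, and 591 of 10309 windows (5.73%) held it, so that the absence of these letters from Psmb8 depends on the window.

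Of the other core genes, Psma5, Psma7, Psmb1, Psmb2 and Psmb4 were called higher in NM-R, with log2 fold changes of 0.70, 0.59, 0.40, 0.70 and 0.64. The alpha-ring genes Psma2 (-0.02) and Psma3 (log2 fold change -0.20 ± 0.09 (SE), limma adjusted p = 0.068) were not called. Psma3 ranged from 1288 to 1618 in mice and from 1109 to 1329 in NM-R, and the groups overlapped, but it was called lower with libraries rescaled to the same total or without mouse 1. The testis-type alpha subunit gene Psma8 was close to 0 in spleen, at 17.1, 26.1 and 11.5 in mice 1, 2 and 3, 1.41 in lsNM-R 1 and 0 in the other 5 NM-R spleens. This was 52 reads in all mice against 1 read in all NM-R, a ratio of 121 with an exact 95% interval of 20.8 to 4886 that covers counting error only. Psma8 had the lowest fold change of the 11 core genes, so setting it to a floor of 3 reads over the NM-R group could not change the core median.

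In the regulatory particle, the ring of ATPases (Psmc) unfolds substrates and the Psmd subunits form its base and lid. Psmd6, a lid subunit, had the highest fold change (log2 fold change 1.09 ± 0.10 (SE), limma adjusted p = 3.6e-06) and measured 730.5, 808 and 919 in mice 1, 2 and 3, 2001, 1695 and 1725 in ssNM-R 2, 3 and 6, and 1627, 1825 and 1605 in lsNM-R 1, 4 and 5. The NM-R spleens all exceeded the mice. Psmc5, an ATPase, followed (log2 fold change 1.08 ± 0.10 (SE), limma adjusted p = 3.4e-06), with 1186 to 1298 in mice and 2189 to 2940.1 in NM-R. Psmc2, Psmd1, Psmd2, Psmd3, Psmd7, Psmd11, Psmd12 and Psmd13 were also called higher, with log2 fold changes between 0.49 (Psmc2) and 0.94 (Psmd12). The ATPase gene Psmc3 (0.20) was not called, although it was called higher with upper-quartile scaling or the replicate block and, in ssNM-R alone, with upper-quartile or quantile scaling or without mouse 3. Psmd4, a receptor for ubiquitin chains, measured 1879, 1874 and 2297 in mice 1, 2 and 3, 1987, 1922 and 1534 in ssNM-R 2, 3 and 6, and 1669, 1612 and 1184 in lsNM-R 1, 4 and 5. Its groups overlapped (log2 fold change -0.30 ± 0.14 (SE), limma adjusted p = 0.068), although it was called lower in lsNM-R alone (-0.45). That call was lost without mouse 3 or lsNM-R 5 and with upper-quartile scaling. Psmd4 was called lower in all NM-R with libraries rescaled to the same total or without lsNM-R 1.

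The ATPase gene Psmc4 was called lower by a small margin (log2 fold change -0.21 ± 0.08 (SE), limma adjusted p = 0.037), with 1144 to 1364 in mice and 989 to 1210.2 in NM-R, which overlapped. This call was lost with edgeR, with upper-quartile or quantile scaling, without the trend and with the replicate block. It was also lost without any of mouse 2, mouse 3, ssNM-R 3, ssNM-R 6, lsNM-R 1 and lsNM-R 5.

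All 4 listed assembly factors were called higher. Psmd5, a chaperone of the ATPase ring, measured 623, 762 and 841 in mice 1, 2 and 3, 1708, 1606 and 1718 in ssNM-R 2, 3 and 6, and 1595, 1837 and 1749.5 in lsNM-R 1, 4 and 5. Every NM-R spleen was above every mouse (log2 fold change 1.21 ± 0.10 (SE), limma adjusted p = 2.3e-06). Psmg1 and Psmg2 form a pair that helps to build the alpha ring, with log2 fold changes of 0.68 and 0.89, and Psmg3, which acts beside them, had 0.93. Their mouse and NM-R values did not overlap either. Leaving out each spleen in turn, or any scaling tried, kept each of these 4 and the 3 immunoproteasome genes on the same side of the threshold.

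The remaining regulators diverged. Psme3, which forms the nuclear activator ring, measured 2529, 3562 and 3956 in mice 1, 2 and 3, 1534, 1549 and 1724 in ssNM-R 2, 3 and 6, and 1408, 1572 and 1558 in lsNM-R 1, 4 and 5. All NM-R spleens were below all mice (log2 fold change -1.08 ± 0.13 (SE), limma adjusted p = 3.4e-05). Psmf1, known as an inhibitor of the core particle, measured 648, 938 and 1115 in mice 1, 2 and 3, 3177, 2518 and 2448 in ssNM-R 2, 3 and 6, and 2797, 3328 and 2806 in lsNM-R 1, 4 and 5. Here all NM-R spleens were above all mice (log2 fold change 1.69 ± 0.16 (SE), limma adjusted p = 6.3e-06). Psme4, an activator with roles in the nucleus, was called higher by a small margin (log2 fold change 0.35 ± 0.09 (SE), limma adjusted p = 0.0067), and in ssNM-R alone it was called only under other settings, such as edgeR, quantile scaling or without ssNM-R 6. Psmc3ip, not a proteasome part, measured 54.2, 105 and 81.8 in mice 1, 2 and 3, 739.8, 498 and 605 in ssNM-R 2, 3 and 6, and 609, 642 and 607 in lsNM-R 1, 4 and 5, higher in every NM-R spleen (log2 fold change 2.96 ± 0.20 (SE), limma adjusted p = 4.2e-07).

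Set against the same mice, the cohorts gave similar counts, and these comparisons share the 3 mice. In ssNM-R 24 members were called higher (38.0% of all genes) and 5 lower (37.5%). In lsNM-R 25 were called higher (38.1%) and 7 lower (37.0%). Of the higher calls, that of Psmb1 was lost without mouse 1, mouse 2 or lsNM-R 4. The replicate block reduces lsNM-R against mouse to lsNM-R 1 against mouse 1, which are not a pair, so its calls in lsNM-R are not given. The lower call of Psmc4 in lsNM-R was lost without mouse 2, mouse 3 or lsNM-R 5. Upper-quartile scaling also ended the lower call of Psmc4. The median log2 fold changes in ssNM-R and lsNM-R were 0.73 and 0.53 for the core. They were 0.73 and 0.67 for the regulatory particle. They were 1.00 and 0.82 for the assembly factors and -3.39 and -3.72 for the immunoproteasome. The medians of all genes were 0.02 and 0.01.

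Between lsNM-R and ssNM-R, limma called 0 members higher (0% of all genes) and 0 lower (0%). At an unadjusted p under 0.05, 4 of 35 members and 1138 of all genes (8.79%) passed. edgeR called 0 genes, and DESeq2 called 41 genes higher and 16 lower but no member, whose smallest DESeq2 adjusted p was 0.276. The lsNM-R values lay wholly below those of ssNM-R for 9 members (6.23% of all genes) and wholly above for 1 member, Psmg1 (6.84%). Of the 34 subunits and factors, 28 had a log2 fold change below 0, with a median of -0.13, while 6209 of 12946 genes lay below 0 with a median of 0.01. Members of a complex are not independent of each other, so these counts carry no test. With a block for the replicate number the median was 0.03 (core), 0.00078 (regulatory particle) and 0.26 (assembly). Without it these were -0.15, -0.13 and -0.06. In the blocked fit lsNM-R 4, lsNM-R 5 and ssNM-R 6 share a number with no other spleen and drop out of the comparison. It then sets lsNM-R 1 less mouse 1 against ssNM-R 2 and 3 less mice 2 and 3. The replicate numbers do not pair the samples, so the blocked fit cannot decide the direction.

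The smallest unadjusted p values were those of Psmd3, a lid subunit, Psma7, an alpha-ring subunit, and Psmb10. Psmd3 measured 3814, 3744 and 3387 in ssNM-R 2, 3 and 6 and 3337, 2809 and 2555 in lsNM-R 1, 4 and 5. Psma7 measured 3109.6, 3211 and 2749.6 and 2545, 2523 and 2335 in the same order. In each of the 3 genes every lsNM-R spleen was below every ssNM-R spleen, and the limma adjusted p was 0.49 for Psmd3, 0.49 for Psma7 and 0.52 for Psmb10.

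**Figure D3:**
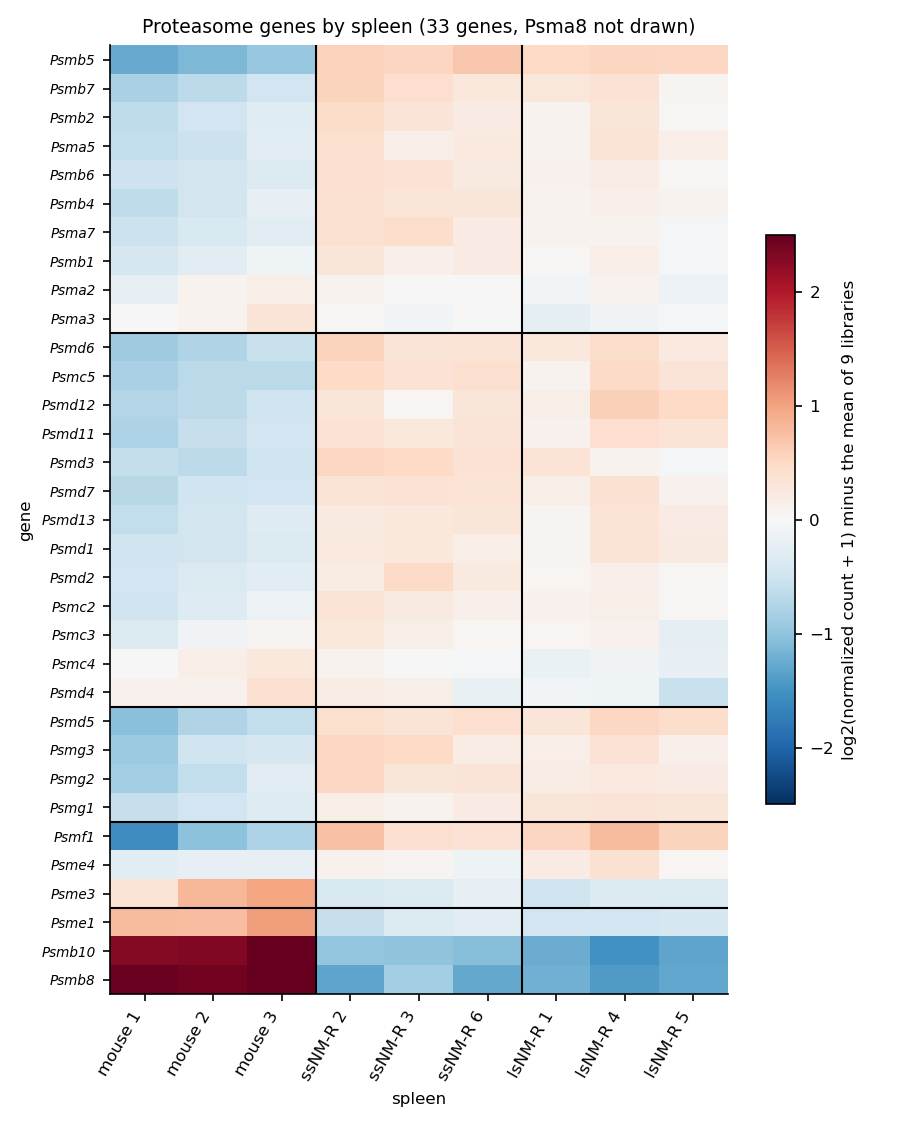
Each row is a gene and each column a spleen; colour gives log2(normalized count + 1) minus that gene's mean over the 9 spleens, for 33 genes. Mouse columns are below the mean for most genes and above it for the immunoproteasome genes, and mouse 1 is the lowest mouse in most rows.

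The mice differed from each other in a similar order for most members. Mouse 1 was the lowest mouse in 29 and mouse 3 the highest in 33 of the 34 subunits and factors, beside 35.6% and 36% of genes with a group mean of at least 10 and no ties. Among the immunoproteasome genes mouse 3 was the highest in all 3, but mouse 2 was the lowest in 2 of 3. For erythroid markers mouse 1 was the lowest and mouse 3 the highest in 8 of 8 genes, and for markers of dividing cells in 6 of 6. The 8 listed of 12 erythroid markers were all called higher in NM-R, and their summed normalized counts were 22727, 50371 and 63379 in mice 1, 2 and 3, 174515, 134168 and 118017 in ssNM-R 2, 3 and 6, and 135929, 166395 and 114553 in lsNM-R 1, 4 and 5, with the highest count, not divided by length here or for the other marker lists, that of Slc4a1 or, in mouse 1, Alas2. The 6 listed of 10 dividing-cell markers, 5 of them called higher, summed to 3996, 7023 and 9141 in mice 1, 2 and 3, 21736, 17862 and 17260.3 in ssNM-R 2, 3 and 6, and 17062, 20879 and 16797 in lsNM-R 1, 4 and 5, with the highest count that of Top2a. No marker of either list was at 0 in any library. Without mouse 1, the same 25 members were called higher (37.7% of all genes in that fit) and 7 lower (36.9%), the added gene being Psma3, and the median of the core was 0.54. Among the NM-R spleens, ssNM-R 2 was the highest in 18 and lsNM-R 5 the lowest in 15 of 34 members (18.3% and 17.1% of genes), and the same spleens were highest and lowest in 5 of 6 dividing-cell markers each. Of the 8 erythroid markers, by contrast, lsNM-R 4 was the highest in 6 and ssNM-R 2 in 2, and lsNM-R 5 was the lowest in 5. Beside the called markers of both lists, 39.7% of all genes were called higher in NM-R. The part of red cell precursors and of dividing cells in these results was not tested.

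B cell markers, like the immunoproteasome genes, were lower in NM-R than in mice. All 9 of 9 were called lower in NM-R, and they summed to 60198, 60007 and 60802 in mice 1, 2 and 3, 2936, 5445 and 3886 in ssNM-R 2, 3 and 6, and 7552, 3498 and 4227 in lsNM-R 1, 4 and 5, with the highest count that of Cd22 and none at 0. Within the mice the sums were nearly level. Among all NM-R spleens lsNM-R 1 was the highest for all 9 markers and for 0 of 3 immunoproteasome genes. Among the lsNM-R spleens alone it was the highest for all 9 markers and for 2 of 3 immunoproteasome genes. Among the ssNM-R spleens ssNM-R 3 was the highest for all 9 markers and for 1 of 3 immunoproteasome genes. Between lsNM-R and ssNM-R 8 of 9 B cell markers had a log2 fold change above 0 and all 3 immunoproteasome genes below 0, with 0 of either called by limma. The 6 listed of 8 T cell markers were all called lower, with sums of 8324, 8469 and 9087 in mice 1, 2 and 3, 3060.4, 4612 and 3888 in ssNM-R 2, 3 and 6, and 5765, 3287 and 4475 in lsNM-R 1, 4 and 5. The highest count was that of Lck in mice and Cd4 in NM-R, and none was at 0. Mouse 1 was the lowest mouse in 5 and mouse 3 the highest in 4 of these 6 markers. In lsNM-R alone 4 of these 6 T cell markers were called lower (37.0% of all genes), without Cd3e and Cd3g. The values of Cd3e and Cd3g overlapped between NM-R and mouse. The 6 listed of 11 granulocyte markers were all called higher, with sums of 8068, 7524 and 6329 in mice 1, 2 and 3, 34244, 33213 and 25882 in ssNM-R 2, 3 and 6, and 44454, 38023 and 34297 in lsNM-R 1, 4 and 5, the highest count that of S100a9 and none at 0. For granulocyte markers mouse 1 was the highest and mouse 3 the lowest mouse in 6 of 6. Of the markers of neighbouring tissue 8 of 9 were listed and 4 called higher, with sums of 120.4, 263 and 174 in mice 1, 2 and 3, 259.8, 509 and 2664 in ssNM-R 2, 3 and 6, and 466, 388 and 881 in lsNM-R 1, 4 and 5. The sum was highest in ssNM-R 6, where Alb alone had a count of 2173. The highest count was that of Alb or Cpa1, and 2 of these markers were at 0 in mouse 1 (Cpa1 and Plin1), 3 in mouse 2 (also Ckm) and 1 in lsNM-R 5 (Plin1). Beside the called markers of these lists, 39.7% of all genes were called higher and 38.8% lower in NM-R. The part of these cell types in the levels of the proteasome genes was not tested.

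**Figure D4:**
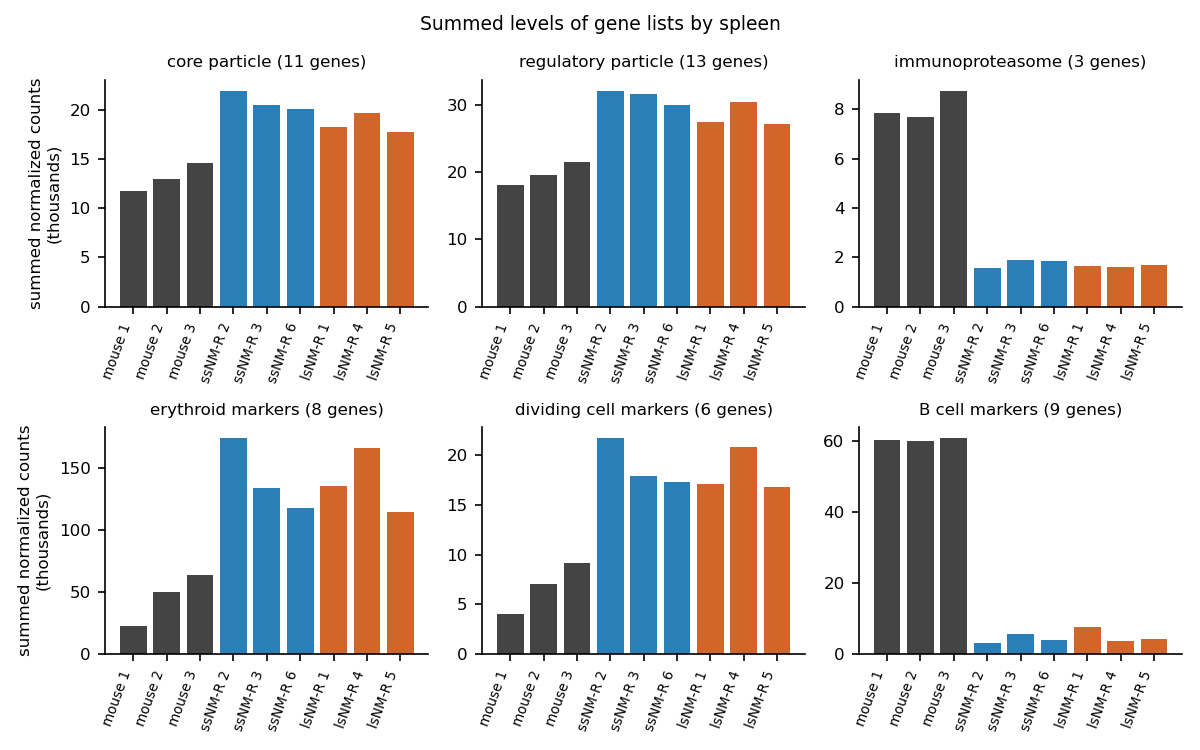
Bars give the summed normalized counts of 6 gene lists, on linear axes that start at 0, in each of the 9 spleens. Core and regulatory particle sums order the mice as the erythroid and dividing-cell sums do, and the immunoproteasome and B cell sums are high in the 3 mice and low in the 6 NM-R. T cell sums, not drawn, order the mice in the same way as the core sums, and granulocyte sums, not drawn, in the opposite way.

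Beyond the complex itself, 16 of 27 ubiquitin-proteasome partners were listed, with 9 called higher (39.7% of all genes), 5 lower (38.8%) and a median of 0.26. In ssNM-R alone 6 were called higher (38.0% of all genes) and 5 lower (37.5%). In lsNM-R alone 9 were called higher (38.1%) and 4 lower (37.0%). Txnl1, a redox protein bound to the regulatory particle, was among those called higher (0.77). Ubqln2, a shuttle that brings ubiquitinated proteins to the proteasome, was the lowest (log2 fold change -1.61 ± 0.11 (SE), limma adjusted p = 6.1e-07). Nfe2l1, the transcription factor that drives proteasome genes when degradation falls short, measured 2935, 2799 and 2657 in mice 1, 2 and 3, 1299, 1443 and 1519.8 in ssNM-R 2, 3 and 6, and 1281, 1305 and 1299.9 in lsNM-R 1, 4 and 5. It was lower in every NM-R spleen than in any mouse (log2 fold change -1.04 ± 0.08 (SE), limma adjusted p = 8.4e-07). Pomp, which matures the core particle, was not listed in the table under this symbol.

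Of the MHC class I presentation genes, 7 of 12 were listed, 6 were called lower (38.8% of all genes) and limma called 0 higher, with a median of -1.34. All 6 lower genes also passed in each cohort. Nlrc5, an activator of MHC class I gene transcription, was the lowest (log2 fold change -4.15 ± 0.24 (SE), limma adjusted p = 1.7e-07), at 3546, 2988 and 3276 in mice 1, 2 and 3, 263, 246 and 169 in ssNM-R 2, 3 and 6, and 249, 114 and 122 in lsNM-R 1, 4 and 5. Every NM-R value was below every mouse value. Tapbp, which loads peptides (-2.86), and Tap1 (log2 fold change -2.15 ± 0.12 (SE), limma adjusted p = 1.1e-07) followed. Tap1 measured 4479, 4347 and 4954 in mice 1, 2 and 3, 1068, 1189 and 1167 in ssNM-R 2, 3 and 6, and 1034, 744 and 1049.7 in lsNM-R 1, 4 and 5, and its groups did not overlap. Erap1, which trims peptides, fell less (-0.94), and Pdia3, a chaperone of the loading complex, was not called (-0.04) and changed sign with the scaling. B2m was not listed in the table under this symbol.

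Some values are uncertain for reasons of sequence. The mouse annotation holds pseudogene copies of Psmb5, Psmb6 and Psmb7 that could share reads with them, and genes on the opposite strand overlap exons of Psma5, Psmb7, Psmb8, Psmc3, Psmd1, Psmd3, Psmd13, Psme1 and Psmc3ip, and genes on the same strand those of Psmb5 (Mir686) and Psmd1 (Armc9). The sources name either an mRNA or a total RNA kit, both of which mark strand, but the sources used here do not say whether reads were counted by it. The NM-R gene models were not analysed here.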

How the data were processed

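RNA of 9 spleens was sequenced. The authors aligned reads with STAR 2.5.3a to mm9 (mouse) or hetGla2 (NM-R), counted them per gene with HTSeq 0.10.0, gave NM-R genes mouse homologue names, merged the species and normalized with DESeq2. The deposited signal is this normalized read count, 1 column for each spleen and not divided by gene length. Dividing by the smallest step of each column gave whole reads for 100% of values (tolerance 0.01 reads), on which edgeR called 5163 genes higher and 4948 lower in NM-R and DESeq2 5060 and 4964, beside 5134 and 5024 by limma. The study used DESeq2, but the table holds normalized counts, so limma was the main test.

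Members and lists were chosen with earlier results of these data known. limma (version 3.58.1, R 4.3.3) was fitted to log2(value + 1) of all 9 spleens with 1 mean for each group, eBayes with trend, no filter, 2-sided, and Benjamini-Hochberg adjustment over all 12946 genes at 0.05. Alternatives were edgeR 4.0.16 with TMM, DESeq2 1.42.0, pseudocounts of 0.5 and 5, a mean of at least 10, other scalings, no trend, only the compared groups, a block, depth classes split at 12000000 reads after depths were seen, and leaving out each spleen. The fit was tested on simulated data. Catalytic ratios used scipy 1.17.1 and an exact permutation test that doubles the smaller 1-sided p. The absolute difference of means, used first, gives 0.0119; both are reported because the choice was made after the data were seen. Replicates are separate animals.

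Genes named were the catalytic subunits and the activators Psme1 to Psme4, the 2 highest and 2 lowest fold changes of core, regulatory particle, assembly and both pathway lists, the 3 smallest p between cohorts, and Pomp, Nfe2l1, Tap1 and B2m. Psmf1, Psmc3ip and other members named for a call or its absence were added after their values were seen. A gene that this rule takes is not reported here. Promoters were read from mm9 with its annotation.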

Additional observations from a re-analysis of the deposited data

How the results depend on the processing

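In all, 2474 alternative values were computed. Counts of members called against mouse stayed within 1.5 times under every setting tried, and no scaling moved the median of all genes by 0.1 or more. Upper-quartile scaling moved the core median to 0.73 (NM-R), 0.83 (ssNM-R) and 0.62 (lsNM-R) and the regulatory particle median to 0.79 (NM-R) and 0.83 (ssNM-R). Leaving out each spleen gave core medians of 0.54 to 0.70 (NM-R) and 0.42 to 0.59 (lsNM-R), in both the lowest without mouse 1. The ratio differences were -5.44 to -5.29 (Psmb8 to Psmb5) and -4.56 to -4.46 (Psmb10 to Psmb7). With a mouse left out the smallest possible exact p is 0.0714, or 0.0357 with the absolute difference as the statistic, an alternative chosen after seeing the data, so that passing 0.05 there depends on the statistic. DESeq2 called 41 genes higher and 16 lower in lsNM-R against ssNM-R, where limma called 0. Pdia3, not called, reversed to 0.055 against mouse with upper-quartile scaling in NM-R, ssNM-R and lsNM-R alike, to 0.010 (NM-R) and 0.057 (ssNM-R) without ssNM-R 2, and to 0.033 (lsNM-R) without lsNM-R 1, within ranges over left-out spleens that began at -0.0799 (NM-R), -0.12 (ssNM-R) and -0.11 (lsNM-R). The causes were not tested.

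Replicate numbers shared by mouse and NM-R name different species, and deviations of same-numbered spleens correlated at 0.0326, -0.00346 and -0.00998 over 11483 genes, so they do not pair the samples. In the replicate block lsNM-R 4, lsNM-R 5 and ssNM-R 6 share a number with no other spleen and drop out of the comparisons. There lsNM-R against mouse rests on lsNM-R 1 and mouse 1 alone, and lsNM-R against ssNM-R also depends on the same-numbered mice. With the replicate block the median was 0.63 (core), -3.52 (immunoproteasome) and 1.08 (assembly) in lsNM-R against mouse, and 0.03 (core), 0.00078 (regulatory particle) and 0.26 (assembly) in lsNM-R against ssNM-R, against -0.15, -0.13 and -0.06 without it, while that of the immunoproteasome was -0.11 against -0.14. Leaving out each spleen gave medians between cohorts of -0.21 to -0.11 (core), -0.20 to -0.09 (regulatory particle), -0.09 to -0.02 (assembly) and -0.23 to -0.03 (immunoproteasome, nearest 0 without ssNM-R 3), and ratio differences of -0.17 to 0.11 (Psmb8 to Psmb5) and -0.26 to -0.02 (Psmb10 to Psmb7) in an alternative chosen after seeing the data. The replicate block ended the call of Psmc4 and added Psmc3 as higher in NM-R, where the lsNM-R cohort entered through lsNM-R 1 alone. In the window before the transcript with the longest coding part, also chosen after seeing the data, 1 of 3 immunoproteasome promoters held TTCNNNGAA, against 0.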
